A study of Homo sapiens with 2 samples.

Results

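The 10 genes described here encode kinases of mitosis, 1 related pseudokinase and the B-type cyclins, and they were taken by name: AURKA, AURKB, PLK1, NEK2, BUB1, BUB1B, TTK, CDK1, CCNB1 and CCNB2. All 10 were found among the 19974 protein-coding genes on chromosomes 1 to 22 and X of the RefSeq gene table (GRCh38.p14). DNA bound by TCF19 was enriched by chromatin immunoprecipitation and sequenced (ChIP-seq) with 1 antibody against TCF19 in Ishikawa, a human cell line established from endometrial cancer. The control cells (genotype label: negative control) had received a control lentivirus and the others a lentivirus that overexpresses TCF19, and both populations were selected with puromycin. The libraries are called control and the TCF19 library below. Each group was 1 library, so there is no replicate and no test of the condition. The data are called peaks, which do not measure gene expression, so the cell type was not checked against marker genes.

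CDK1 bound to a B-type cyclin is the kinase complex that brings a cell into mitosis. Aurora kinases, PLK1 and NEK2 then act at centrosomes, spindle and chromosomes, while BUB1, BUB1B and TTK belong to the spindle checkpoint, which holds back chromosome separation until every chromosome is attached. Many genes of this kind are transcribed mainly late in the cell cycle, and their promoters are known for CCAAT boxes, bound by NF-Y, and for the cell cycle homology region (CHR), bound by the MuvB complex. TCF19 itself is a chromatin protein that reads histone marks through its PHD finger.

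The control list held 170334 summits (the highest position of a called peak) and the overexpression list 112212. The background floor of the peak caller, which stands for the average read coverage of the genome, was 1.58 reads in control and 1.43 in the TCF19 library, 0.903 of the control depth. Summit heights below are pileups, the number of overlapping reads at the summit, with 95% exact Poisson intervals that cover counting error only. The TCF19 gene itself had 0 summits in control and 3 in the TCF19 library, the highest of 143 reads. Whether those reads came from the gene or from the TCF19 lentivirus was not tested.

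Promoter stretches are shown for 6 genes, because in 5 of them the highest summit of the TCF19 library stood within 50 bp of the start and because the CDK1 promoter holds all 3 kinds of match marked here. Each is the last 150 bases before a start listed in RefSeq (GRCh38.p14), 5′ to 3′ on the strand of the gene, so the summits after a start (all but that of BUB1) lie beyond the stretch, and capitals mark matches to a CHR, a CCAAT box or an E2F type site on either strand.
PLK1, chr16:23678739-23678888, plus strand: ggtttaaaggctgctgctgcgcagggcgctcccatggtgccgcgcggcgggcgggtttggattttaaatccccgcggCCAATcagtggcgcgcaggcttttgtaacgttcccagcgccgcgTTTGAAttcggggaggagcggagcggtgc
BUB1, chr2:110678064-110678213, minus strand: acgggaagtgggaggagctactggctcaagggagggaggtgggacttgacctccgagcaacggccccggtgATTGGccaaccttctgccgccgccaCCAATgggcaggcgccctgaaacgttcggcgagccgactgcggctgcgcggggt
BUB1B, chr15:40160919-40161068, plus strand: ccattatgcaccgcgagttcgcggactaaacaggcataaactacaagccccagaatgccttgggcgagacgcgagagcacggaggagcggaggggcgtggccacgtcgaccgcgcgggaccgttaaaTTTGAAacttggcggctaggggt
NEK2, chr1:211675622-211675771, minus strand: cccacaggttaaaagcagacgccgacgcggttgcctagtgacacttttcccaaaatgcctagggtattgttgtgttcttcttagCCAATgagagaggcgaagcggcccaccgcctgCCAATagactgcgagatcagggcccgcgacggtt
CCNB2, chr15:59104996-59105145, plus strand: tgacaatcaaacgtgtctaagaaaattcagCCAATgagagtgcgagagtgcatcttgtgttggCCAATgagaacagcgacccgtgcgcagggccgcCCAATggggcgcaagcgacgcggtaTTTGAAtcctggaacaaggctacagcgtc
CDK1, chr10:60778328-60778477, plus strand: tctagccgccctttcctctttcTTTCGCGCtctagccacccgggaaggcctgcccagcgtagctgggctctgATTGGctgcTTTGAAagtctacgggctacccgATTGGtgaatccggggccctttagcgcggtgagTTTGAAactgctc

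All 10 genes had a summit within 1000 bp of their start in the TCF19 library, and 6 of the 10 had one in control. Across all protein-coding genes the shares were 64.9% in the TCF19 library and 53.5% in control. AURKB, BUB1, PLK1 and TTK had a start summit in the TCF19 library alone, as did 16.1% of all genes. No member had one in control alone, where 4.75% of all genes did, and AURKA, NEK2, BUB1B, CDK1, CCNB1 and CCNB2 had one in both libraries, against 48.8% of all genes. The promoter table held a start for 8 members. AURKA and TTK had no entry, so a summit near either end of these genes was counted. The AURKA summit of the TCF19 library is in these counts, although it cannot be assigned to AURKA or to its neighbour CSTF1. Among the 15812 genes with a listed start, 66.4% had a start summit in the TCF19 library, against 8 of these 8 members, and 54.4% had one in control, against 5 of the 8. That is a description: the genes were proposed with earlier results of these data known.

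CDK1 (chromosome 10, 60778331 to 60794852) encodes the kinase that pairs with cyclin B. Its highest start summit had 13 reads (6.9 to 22.2) at 60778782 in control and 23 reads (14.6 to 34.5) at 60778859 in the TCF19 library. The summits stood 77 bp apart, 304 and 381 bp into the gene from the second of its 2 listed starts (60778331 and 60778478). Relative to the background floor, the pileup was higher in the TCF19 library by 0.97 on the log2 scale, with an exact counting interval of -0.07 to 2.07, which includes 0. CDK1 was the only member whose highest start summits in both libraries lay within 100 bp of each other. A second control summit upstream of CDK1, at 60777650, was not called in the TCF19 library.

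CCNB1 and CCNB2 encode the B-type cyclins that activate CDK1, and both genes had start summits in both libraries. At CCNB1 (chromosome 5, 69167150 to 69178245) the control summit had 13 reads (6.9 to 22.2), 15 bp into the gene. The overexpression library had 1 interval of 756 bp over that start, with 2 summits of 15 reads (8.4 to 24.7) each, 160 bp before and 224 bp after it, so the control summit lay between them. At CCNB2 (chromosome 15, 59105146 to 59125045) the summit had 9 reads (4.1 to 17.1) in control, 163 bp into the gene, and 13 reads (6.9 to 22.2) in the TCF19 library, 47 bp into it. At both cyclin genes the intervals of control and the TCF19 library overlapped.

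PLK1 encodes the polo-like kinase that acts at centrosomes, kinetochores and the site of cell division. Its start (chromosome 16, 23678889 to 23690367, plus strand) had no called summit in control. In the TCF19 library an interval of 971 bp covered the start, with a summit of 23 reads (14.6 to 34.5) and a 6.38-fold enrichment (the authors' value) 1 bp into the gene. An equal occupancy in control would have given 25.5 reads at its depth. With the local background scaled in the same way, 9 reads would have been enough for a call. The local background of control at that place is not in its list, so this limit assumes that it matched.

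The aurora kinase AURKB works in the chromosomal passenger complex at centromeres and the midzone, and AURKA works at spindle poles. AURKB (chromosome 17, 8204731 to 8210575, minus strand) had a start summit in the TCF19 library alone, of 18 reads (10.7 to 28.4), 171 bp upstream of the nearer of its 2 listed starts (8210225 and 8210249) but still inside the gene span. Its local background, 2.84 times the floor, was the highest among the 10 overexpression start summits. The lowest callable pileup in control at a matching background was 12 reads, 60.2% of an equal occupancy. At AURKA (chromosome 20, 56369390 to 56392215) control had 2 summits near the higher end, of 11 reads inside AURKA and 10 reads inside the neighbouring gene CSTF1, and the TCF19 library 1 summit of 10 reads (4.8 to 18.4). That summit, at 56392367, lay 152 bp outside AURKA and 12 bp from the lower end of CSTF1, which encodes an RNA 3′ end processing factor, so it cannot be assigned to either gene.

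NEK2 encodes a kinase that helps to separate centrosomes. At its start (chromosome 1, 211658256 to 211675621, minus strand) control had 9 reads (4.1 to 17.1), 225 bp into the gene, and the TCF19 library 19 reads (11.4 to 29.7), 45 bp into it. NEK2 was the only member with an interval of the scaled log2 ratio that left out 0, at 1.23 (0.01 to 2.55). Without scaling for depth the ratio is 1.08 and its interval includes 0. The scaled interval also holds 0.41, the median over all genes with a start summit in both lists. The 2 NEK2 summits stood 180 bp apart. The lower end of the long noncoding RNA gene NEK2-DT lies 141 bp from the start of NEK2.

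The 3 spindle checkpoint genes all had a start summit in the TCF19 library, and BUB1B had one in control too. BUB1 encodes a kinase that brings other checkpoint proteins to kinetochores. Its start (chromosome 2, 110637528 to 110678063, minus strand) had a summit of 19 reads (11.4 to 29.7) in the TCF19 library, 1 bp upstream of the start, and no called start summit in control, where 10 reads would have been enough at a matching background. The nearest control summit, of 15 reads, stood 2004 bp upstream of the start, inside the long noncoding RNA gene LOC105373554, whose lower end is 149 bp from the start of BUB1. TTK, also called MPS1, encodes the kinase that starts checkpoint signalling. It had 13 reads (6.9 to 22.2) in the TCF19 library, 78 bp outside its lower end (chromosome 6, 80004649 to 80042527), and none called in control, where 8 reads would have been enough. BUB1B encodes BUBR1, a pseudokinase and a part of the complex that holds back the anaphase-promoting complex. Its start (chromosome 15, 40161069 to 40221123, plus strand) had 14 reads (7.7 to 23.5) in control, 221 bp into the gene, and 20 reads (12.2 to 30.9) in the TCF19 library, 2 bp into it.

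**Figure D1:**
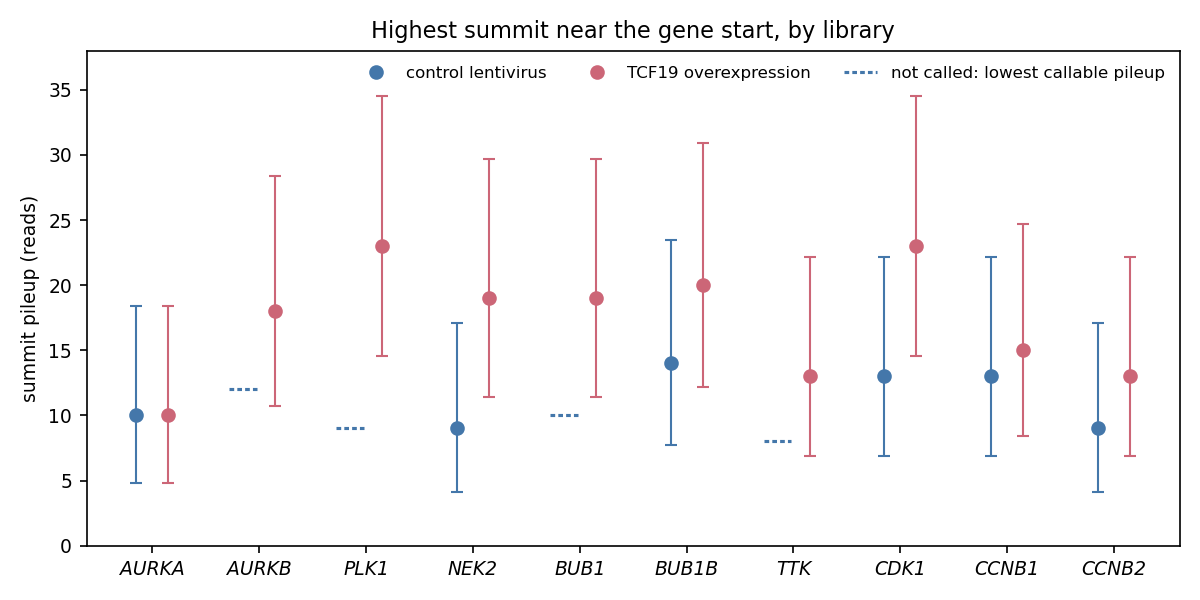
Pileup in reads at the highest summit (by fold) near the start of each gene, in control (blue) and with TCF19 overexpression (red); bars are 95% exact Poisson intervals for counting error in 1 library each, and dotted blue lines give the lowest callable control pileup where none was called. The overexpression point is above the control point at 5 of the 6 genes called in both libraries and level with it, at 10 reads, at AURKA. The AURKA control point is a summit inside CSTF1, and the control summit inside AURKA had 11 reads.

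In the 6 genes called in both libraries the scaled log2 ratio was 0.15 at AURKA, 0.35 at CCNB1, 0.66 at BUB1B, 0.68 at CCNB2, 0.97 at CDK1 and 1.23 at NEK2. All 6 were above 0, but so were 82% of the 9740 genes with a start summit in both lists. The median was 0.67 over these 6 genes and 0.41 over all 9740, with an upper quartile of 0.69 over all. Without scaling for depth every value is lower by 0.15, which puts AURKA at 0. The AURKA ratio used the control summit of higher fold, which lies inside CSTF1, and the control summit inside AURKA had 11 reads. The count above 0 is thus close to the background, and the counting intervals of CDK1, BUB1B, CCNB1, CCNB2 and AURKA included 0.

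The fold enrichment deposited by the authors was ranked only within its own list. In the TCF19 library BUB1B (6.6-fold, percentile 95.6), CDK1 (6.43-fold, 94.3) and PLK1 (6.38-fold, 93.8) stood near the top of the 12954 genes with a start summit. NEK2 stood at percentile 81.4, BUB1 at 74.5 and TTK at 59.4, while CCNB2, CCNB1, AURKB and AURKA stood below the middle, between 25.2 and 44.2. In control BUB1B led again, with 5.81-fold at percentile 94.1 of 10689 genes, followed by CDK1 at 78. The other 4, CCNB1, AURKA, NEK2 and CCNB2, stood between 25 and 44. The median percentile was 67 over the 10 genes in the TCF19 library and 43 over the 6 in control. The start summits were thus spread over much of each list, and BUB1B and CDK1 were the 2 members of highest fold in both.

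**Figure D2:**
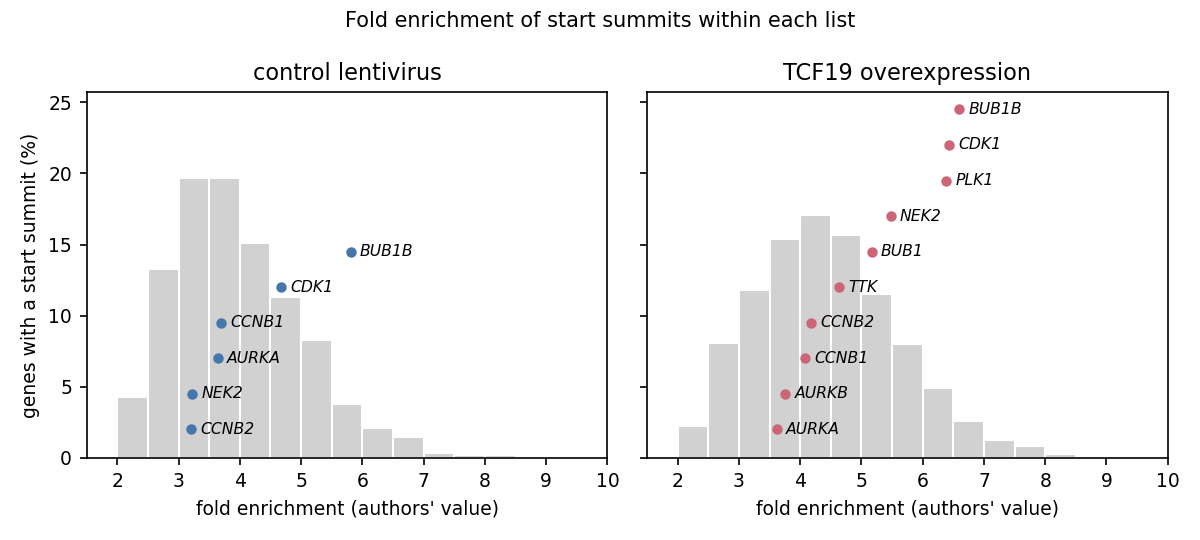
Fold enrichment (the authors' value, horizontal) of the highest start summit per gene, as the percentage of genes in bins of 0.5 (grey bars, to 10-fold), in each list; dots mark the members at their fold, and their height on the page has no meaning. In the overexpression list BUB1B, CDK1 and PLK1 lie on the right shoulder, above 6-fold, and in the control list BUB1B alone lies above 5-fold.

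Summits of the TCF19 library stood close to the starts. Of the 8 genes with a listed start, PLK1 and BUB1 had their highest start summit 1 bp from it, BUB1B 2 bp, NEK2 45 bp and CCNB2 47 bp. In CCNB1 it was 160 bp away, in AURKB 171 bp and in CDK1 381 bp. So 5 of 8 were within 50 bp, against 13.1% of the 10496 genes with a start summit and a listed start in that library. In control 1 of 5 was, CCNB1 at 15 bp, against 10.3% of 8607 genes. The median distance was 46 bp over the 8 genes and 230 bp over all genes in the TCF19 library. The 50 bp limit was chosen after these distances were seen. At BUB1B, NEK2 and CCNB2 the control summit lay deeper in the gene than the overexpression summit, by 219, 180 and 116 bp. At CDK1 the order was reversed, with 304 bp in control and 381 bp in the TCF19 library. At CCNB1 the control summit lay between 2 overexpression summits. The intervals of both libraries overlapped at all 6 genes called in both.

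**Figure D3:**
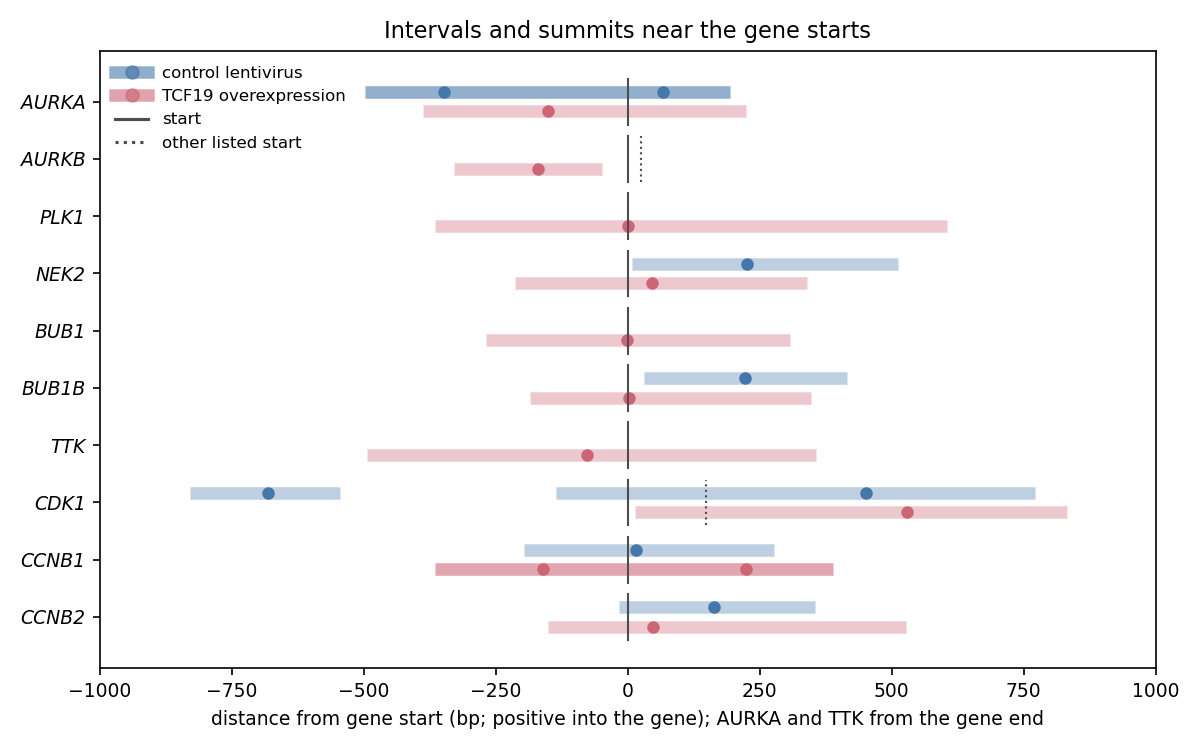
Intervals (bars) and summits (dots) within 1000 bp of the start of each gene, against distance in bp from the start, positive into the gene (AURKA and TTK: from the gene end near the summit); blue is control, red is TCF19 overexpression, and dotted lines mark another listed start. The red summits of PLK1, BUB1 and BUB1B sit on the start line, and the blue interval of BUB1B begins just inside the gene.

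Interval widths at these starts ran from 281 bp at AURKB to 971 bp at PLK1 in the TCF19 library, with a median of 645.5 bp, and from 373 bp at CCNB2 to 908 bp at CDK1 in control, with a median of 489.5 bp. Over all genes with a start summit the medians were 676.5 and 543 bp. The members' widths were thus close to those of other gene starts.

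The promoters were searched over 300 bases, from 250 before to 50 after each listed start, in the 8 members with an entry and in 15813 genes in all. A CHR match (TTTGAA or TTCGAA, both strands) was in 5 of the 8, namely BUB1, BUB1B, CCNB2, CDK1 and PLK1, against 17.4% of all genes. It began 29 bases before the start in PLK1 and CCNB2 and 23 before in BUB1B. CDK1 held a match 161 bases before its first start. At its second start, matches began 69 and 13 bases before it and, on the other strand, 9 bases after it. The BUB1 match began 1 base after the start and lies outside the stretch shown above. A CCAAT box (both strands) was in 7 of the 8, all but BUB1B, against 42.1% of all genes. CDK1 alone held an E2F type match (TTTCGCGC, TTTGGCGC, TTCCCGCC or TTGGCGCC), which 8.25% of all genes held. No member held TATAAA, which 12.4% of genes held, and all 8 held CGCG, as did 70% of genes; TTTCGCGC contains CGCG.

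In 5 genes a window held more than 1 CCAAT box. Neighbouring boxes began 33 bases apart in CCNB2 (2 such pairs, with another box 124 bases farther upstream), 32 apart in CCNB1, NEK2 and CDK1, and 25 apart in BUB1. PLK1 and AURKB held a single box in each window. At least 2 boxes in a window were in 5 of 8 members and in 14.8% of all genes, and neighbours 32 or 33 bases apart were in 4 of 8 members and 0.961% of all genes. That spacing was chosen after the sequences were seen. A match is a description of letters and not a bound site. Genes with these matches were found on both sides of the control result: PLK1 and BUB1, with a CHR and a CCAAT box, had no control start summit, and CDK1 and CCNB2, also with both, had one.

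**Figure D4:**
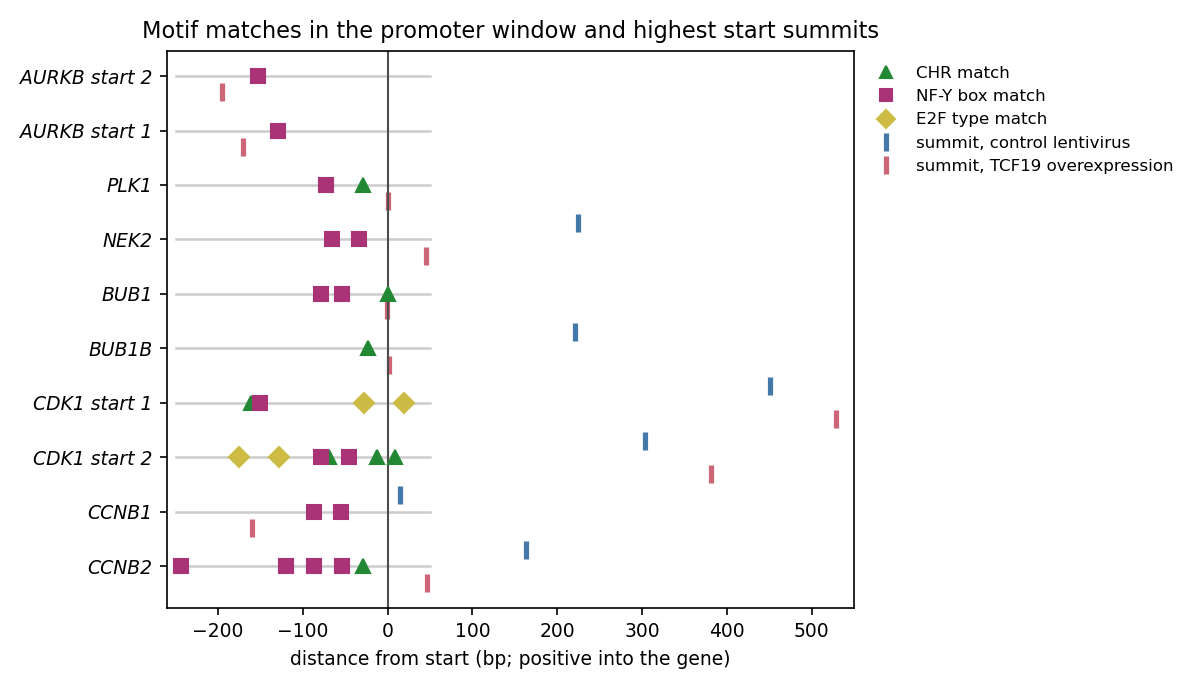
Start of each motif match (triangles CHR, squares CCAAT boxes, diamonds E2F type) between 250 bases before and 50 after each listed start (grey lines), and the highest start summits of control (blue ticks) and TCF19 overexpression (red ticks), against distance in bp from the start; start 1 is the more upstream of 2 starts. CHR matches of PLK1, CCNB2 and BUB1B lie between 29 and 23 bases before the start, and their red ticks 1, 47 and 2 bp after it. The BUB1 match begins 1 base after the start and its red tick lies 1 bp before it. CDK1 also holds CHR matches, but its red tick lies 381 bp after the second start. NEK2 has a red tick 45 bp after its start and no CHR match. A link between matches and summits was not tested.

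Away from the starts the balance between the libraries was the opposite, with 22 body or flank summits in control and 9 in the TCF19 library. Over all protein-coding genes control also had more such summits, 80483 against 49560. Over the gene spans and 5 kb on either side, 344 kb in all, control had 30 summits and the TCF19 library 20. In control 8 were at starts, 20 in gene bodies and 2 in flanks, and in the TCF19 library 11, 7 and 2. The share at starts was 26.7% in control and 55% in the TCF19 library, against 14.6% and 25.9% over all genes. Every member had at least 1 summit in these windows in each library, as did 85.4% of all genes in control and 87.2% in the TCF19 library. A body or flank summit was present at 7 members in control and 6 in the TCF19 library, against 78% and 74.1% of all genes. Summits per 10 kb were 0.873 and 0.582 over the members and 0.691 and 0.515 over all genes.

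BUB1B, the longest gene at 60.1 kb, held 10 of the 20 control body summits. They ran from 5441 to 54603 bp into the gene, with pileups of 6 to 14 reads. The highest, 14 reads (7.7 to 23.5) at 40215672, equalled the pileup at the start. The overexpression library had 3 body summits in BUB1B, of 8, 10 and 18 reads, and each lay within 51 bp of a control summit. The highest of them, 18 reads (10.7 to 28.4) at 40209327, was 5 bp from a control summit of 11 reads (5.5 to 19.7). All 3, and 8 of the 10 control summits, also lie inside the long noncoding RNA gene LOC107984763. BUB1B had 1.57 summits per 10 kb in control, above the upper quartile of 1.11 over all genes, and 0.571 in the TCF19 library, below the median of 0.634. AURKA was alike, with 1.52 in control and 0.609 in the TCF19 library.

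TTK had 3 control body summits, of 12, 7 and 10 reads, and none in the TCF19 library. AURKA had 3 in control, of 9, 10 and 10 reads, and 1 in the TCF19 library, of 6 reads, 31 bp from a control summit. CCNB2 had 2 in control, of 13 and 11 reads, and 1 of 12 reads elsewhere in the gene in the TCF19 library. AURKB had 1 body summit of 17 reads in each library, 99 bp apart. PLK1 had a body summit of 20 reads in the TCF19 library alone, 319 bp inside its higher end and 262 bp from the lower end of ERN2, a gene for a stress sensor of the endoplasmic reticulum. Its flank summits, of 15 and 14 reads, lie inside ERN2. BUB1 had a body summit of 9 reads in control and a flank summit of 14 reads beyond its lower end in the TCF19 library. NEK2, CDK1 and CCNB1 had no summit away from the start in either library. In all, 5 of the 9 overexpression summits in bodies and flanks and 5 of the 22 in control had a summit of the other library within 100 bp, against 35.6% and 21.9% of such summits over all protein-coding genes. The control count is close to that background. Exons and introns were not told apart, because the gene table has no exons.

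**Figure D5:**
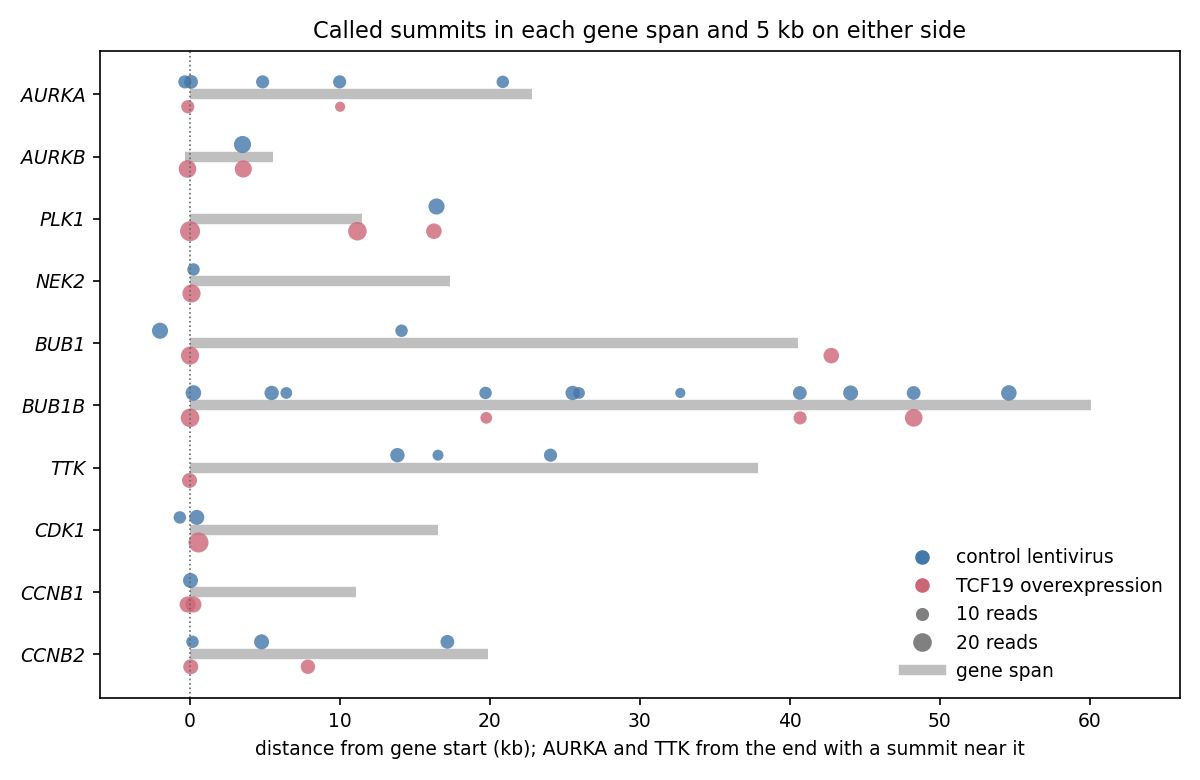
Every called summit in each gene span (grey) and 5 kb on either side, against distance in kb from the gene start (AURKA and TTK: from the gene end near the start summit); blue dots above the line are control, red dots below it are TCF19 overexpression, and dot area follows the pileup in reads. Red dots gather at 0, and the 10 blue body summits of BUB1B spread along the gene against 3 red ones.

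Other genes of mitotic control were counted by the same rule in 3 lists. Of 22 regulators and partners of these kinases, 19 had a start summit in the TCF19 library and 16 in control. BUB3 and MAD1L1 of the spindle checkpoint, CKS1B, which encodes a CDK-binding subunit, and CCNF, which encodes cyclin F, had one in the TCF19 library alone, with 16, 17, 12 and 16 reads. BUB3 had no listed start, so both of its ends were searched, and SHC1 ends within 1000 bp of the CKS1B summit. INCENP, the scaffold of the chromosomal passenger complex around AURKB, had one in control alone, with 13 reads (6.9 to 22.2). BORA, which encodes an activator of AURKA and PLK1, had 12 reads in control (6.2 to 21) and 30 in the TCF19 library (20.2 to 42.8), at a place where the gene MZT1 also ends within 1000 bp. MAD2L1, the checkpoint gene for MAD2, had 11 (5.5 to 19.7) and 26 (17 to 38.1), and CDC25B, which encodes a phosphatase that activates CDK1, had 26 (17 to 38.1) and 21 (13 to 32.1). BIRC5 (survivin) had 20 reads in both, with no listed start, so both ends were searched.

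Among 19 relatives of the members, 15 had a start summit in the TCF19 library and 10 in control. PLK4, CCNB3, CDK4, CDK6, NEK4 and NEK6 had one in the TCF19 library alone, with 15, 10, 16, 22, 18 and 15 reads, and NEK10 in control alone, with 12. CDK2, with no listed start and with PMEL ending beside its summit, had 20 reads (12.2 to 30.9) and 22 (13.8 to 33.3). Among 15 genes for transcription factors of G2/M genes, 13 had one in the TCF19 library and 9 in control. MYBL2, E2F4, RBL1 and TFDP1 were seen in the TCF19 library alone, with 21, 20, 23 and 21 reads. FOXM1, which encodes a forkhead factor that activates many mitotic genes, had 19 reads (11.4 to 29.7) in control, and its TCF19 library summit had 32 (21.9 to 45.2). FOXM1 had no listed start, and RHNO1 ends within 1000 bp of its summit. The shares in the 3 lists were 86.4%, 78.9% and 86.7% in the TCF19 library and 72.7%, 52.6% and 60% in control, beside the 64.9% and 53.5% of all genes. Start summits in the TCF19 library alone were at 4 of 22, 6 of 19 and 4 of 15 genes, beside 16.1% of all genes, and in control alone at 1, 1 and 0, beside 4.75%.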

How the data were processed

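The submitters' processing notes name hg38, the aligner BWA 0.7.12 and the peak caller MACS2 2.1.0; settings, duplicate handling and any input library are not given in those notes. Each library has its own deposited list, which gives per summit an interval, a score, a fold enrichment (a ratio to local background), a −log10 p-value and a −log10 q-value. The authors' −log10 q starts at 1.3 in both lists. Whole-read pileups were recovered from the deposited fold, taken as (pileup + 1) / (background + 1), and the deposited −log10 p as a Poisson tail, within 0.001; 5 control and 4 overexpression summits were not recovered. The recovery was tested on simulated data. Starts and promoter sequences came from RefSeq (GRCh38.p14). Every summit in each gene span and 5 kb on either side was listed: start within 1000 bp of a listed start, otherwise body or flank. Where no start was listed, both gene ends were used. Scaled ratios used the background floors; their intervals are Clopper-Pearson. Lowest callable pileups used the lowest deposited −log10 p of the list. Intervals cover counting error only, since reads may hold PCR copies. All members were named. Of the 3 lists, the genes seen in 1 library alone were named, and the 3 of highest pileup per list and library, ties in alphabetical order. The members and lists were chosen with earlier results of these data known. Python 3.11.15 and SciPy 1.17.1 were used. No test was run: 1 library per group gives no spread.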

Additional observations from a re-analysis of the deposited data

How the results depend on the processing

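The counts of members with a start summit (6 in control, 10 in the TCF19 library, 4 in the latter alone) were the same with windows of 500 and 2000 bp, at both gene ends, at −log10 q of at least 2 and when intervals in place of summits were counted. The shares of all genes moved. Listed for control, the TCF19 library and the latter alone, they were 44.6%, 57.9% and 18.6% at 500 bp. At 2000 bp they were 60.6%, 70.1% and 14.9%, and at both gene ends 54.6%, 64.8% and 16%. At −log10 q of at least 2 they were 49.5%, 62.7% and 17.9%, and for intervals 55.6%, 66.5% and 15.7%. At −log10 q of at least 3 the member counts were 4, 9 and 6, and 1 member, AURKA, was in control alone (all genes: 39.3%, 56.6%, 22.2% and 4.84%). With equally many summits of highest fold from each list they were 4, 10 and 6, with NEK2 and CCNB2 lost from control (all genes: 34.2%, 64.9% and 32.9%, the last up from 16.1%). With these equal lists, regulators and partners had 9 genes in control, 10 in the TCF19 library alone and 0 in control alone (all genes: 2.22%). The transcription factors had 5 in control and 8 in the TCF19 library alone. At 500 bp, regulators and partners had 8 in the TCF19 library alone and 3 in control alone (all genes: 18.6% and 5.34%). At 2000 bp 0 were in control alone, also among the relatives (all genes: 5.4%). At −log10 q of at least 3, 1 transcription factor gene was in control alone. Ranked by −log10 p, the members' median percentile was 34.3 in control and 60.1 in the TCF19 library. The cause was not tested. The other 126 settings differed by at most 1.5 times or lay within the counting interval. No paired analysis was possible because each group had 1 library. Pileups of 6 to 23 reads at the members limit every comparison of heights.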
